A study of Mus musculus with 36 samples.

Results

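Cultured mouse pro-B cells that lack Sirt7 were compared with wild-type pro-B cells, both carrying the empty retroviral vector (EV). The comparison rests on 4 RNA-seq libraries, 2 labelled Wt with EV and 2 labelled Sirt7-/- with EV. Its members are the 13073 genes, of 18721 rows in the table, that reached 10 normalized counts in 2 or more of these 4 libraries. The same table holds 4 further libraries from Sirt7-/- cells transduced with wild-type Pax5 or with Pax5 K198R, a lysine-to-arginine mutant. The Sirt7-/- mice carry a germline deletion of exons 4 to 10 on the 129Sv background, so that every cell of the animal lacks them, and wild-type littermates served as controls. According to the methods, adult animals of both sexes were used, but the labels give neither age nor sex nor animal for a library. The cells of these 8 libraries were primary bone marrow pro-B cells kept on inactivated OP9 stromal feeder cells with IL-7, SCF and FLT3 ligand, transduced, and sorted by a marker on the vector. The methods state in general that a replicate of a mouse experiment is a separate mouse, but the labels tie no cultured library to an animal, and p-values measure the spread between these libraries.

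SIRT7 is a nuclear NAD+-dependent deacetylase known for its work at ribosomal DNA, chromatin and DNA repair. Pro-B cells are early B cell progenitors that assemble the immunoglobulin heavy chain gene. They depend on signals through the IL-7 receptor, and the transcription factor Pax5 holds them in the B lineage by switching on B cell genes and silencing those of other lineages.

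Totals of the 4 EV libraries ranged from 28365857 to 30160880 normalized counts, of which the 10 most abundant genes took 5.73% to 6.39%. Genes that define pro-B cells were abundant in every library. Ighm, the mu constant region of the heavy chain, had 85449 and 90000.1 normalized counts in wild-type cells and 79755 and 88424 in Sirt7-/- cells. Igll1, a component of the surrogate light chain, had 41759 and 38204 in wild-type cells and 40178 and 35148 in Sirt7-/- cells. The genotypes overlapped for both genes. Over all tested genes the libraries of a genotype differed by a root mean square of 0.57 (wild type) and 0.53 (Sirt7-/-) on the log2 scale, and libraries of different genotypes by 0.59 to 0.72. Stromal genes, which the OP9 feeder cells also express, were present in all 4 libraries at summed levels of 18952 and 14366 in wild-type cells and 14175 and 19114 in Sirt7-/- cells. None of the 21 stromal genes tested was called, against a background of 0.581% of all tested genes, and Fn1 was the most abundant (5116 and 5236 in wild-type cells against 4124 and 6657). In bulk libraries such as these, fewer cells of a type and less RNA per cell cannot be told apart.

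Sirt7 was measured first, since it checks the genotype. It had 1324 and 905 normalized counts in wild-type cells and 336 and 387 in Sirt7-/- cells, or 1114 ± 296 and 362 ± 35.7 (mean ± SD, n = 2). Both Sirt7-/- libraries lay below both wild-type libraries, and the gene fell by 1.599 on the log2 scale, with an SE of 0.22 (limma, adjusted p = 0.0257). The value remained at 325 to 407 normalized counts in the 4 Sirt7-/- libraries with added Pax5. Exons 1 to 3, outside the deletion, hold 22.1% of the exon bases of the transcript with 10 exons, and the deposited counts do not separate exons. Mafg overlaps Sirt7 on the same strand. The source of the remaining counts was not tested. With any 1 of the 4 libraries left out, Sirt7 kept its direction and its adjusted p was above 0.05. Of the other sirtuins, none was called, where 0.581% of all tested genes were. Among them Sirt5, a mitochondrial desuccinylase, had the widest difference (243 and 309 normalized counts against 389 and 461, log2 fold change 0.63, limma adjusted p = 0.23).

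Pcyt2, next to Sirt7, fell as well. It encodes the enzyme that makes CDP-ethanolamine for phosphatidylethanolamine synthesis. It had 3378 and 2839 normalized counts in wild-type cells and 567 and 424 in Sirt7-/- cells, and fell by 2.66 on the log2 scale, with an SE of 0.23 (limma, adjusted p = 0.00795). Sirt7 lies on the minus strand of chromosome 11 of GRCm38 from 120618372 to 120625240, and exons 4 to 10 span 3840 bases at its 3′ end. The first base of Pcyt2, on the same strand, follows 435 bases after exon 10. On the other side of Pcyt2, Arhgdia (a GDP dissociation inhibitor), P4hb (protein disulfide isomerase) and Mcrip1 rose. Arhgdia went from 17557 and 19548 to 33664 and 36739.5 normalized counts (log2 fold change 0.92), P4hb from 7104 and 9572 to 15206 and 17549 (0.99) and Mcrip1 from 1324 and 1187 to 2733 and 2759 (1.13), with limma adjusted p between 0.0128 and 0.0441. These 4 genes were the called genes among 33 tested within 500 kb of Sirt7, against 0.581% of all tested genes, and Alyref and Anapc11, which lie between Arhgdia and Pcyt2, had log2 fold changes of -0.09 each. Since the deletion removes both the protein and the DNA, effects of the missing SIRT7 and of the altered locus cannot be told apart for these genes.

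**Figure D1:**
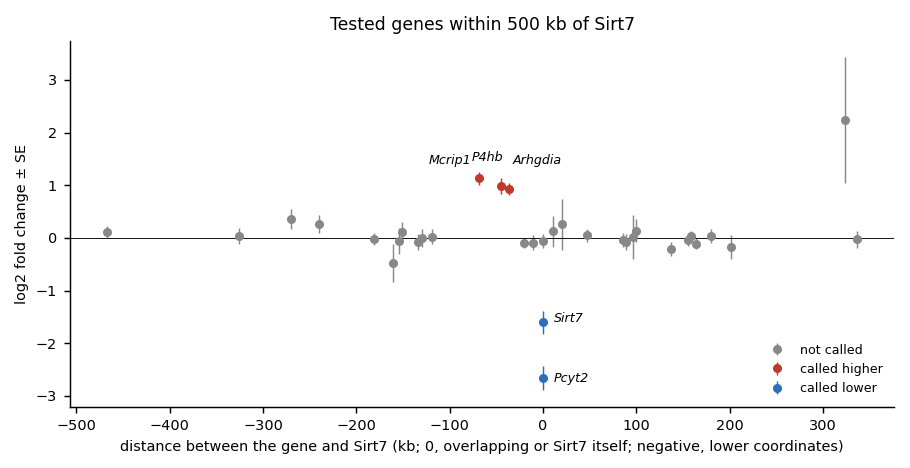
Log2 fold change (Sirt7-/- minus wild type, EV) with its standard error for each tested gene within 500 kb of Sirt7, against the distance between the gene and Sirt7 in kb. Sirt7 and Pcyt2 lie below 0 (blue), Mcrip1, P4hb and Arhgdia between 0.92 and 1.13 (red), and the remaining genes (grey) were not called.

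The sequence around the Pax5 peak at the start of Pcyt2 is shown because it lies beside the deleted exons. Pax5 peaks were taken from ChIP–seq of cultured Pax5-/- pro-B cells given wild-type Pax5, from mice on the C57BL/6 rather than the 129Sv background, and a peak was used when it overlapped in both replicate lists by at least 1 base. The labels call these Pax5-/- cells primary bone marrow pro-B cells, whereas the methods give fetal liver as the source of Pax5-/- progenitors. The window of 121 bases is centred on the summit at chr11:120617717-120617837 of GRCm38, is written 5′ to 3′ on the minus strand, and capitals mark a match to GTCACGC, the reverse complement of the Pax5 core motif GCGTGAC.
Pcyt2: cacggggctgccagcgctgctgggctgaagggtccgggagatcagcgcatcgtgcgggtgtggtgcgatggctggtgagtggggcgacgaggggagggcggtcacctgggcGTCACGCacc
On either strand, this motif was in 4.88% of the summit windows of 7703 shared peaks and in 2.09% of 32851 RefSeq promoter windows (GRCm38.p6), which run from 250 bases before to 50 after a start. Of 9706 tested genes with a promoter window, 4.54% had the motif in at least 1 of their windows, which at 300 bases are longer than the summit windows. A match describes the sequence only.

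Across the genome few genes passed the test. At an adjusted p under 0.05 (limma, Benjamini-Hochberg over the 13073 genes), 56 genes were higher and 20 lower in Sirt7-/- cells, which is 0.428% and 0.153% of those tested and 0.581% together. At an unadjusted p under 0.05 there were 742 higher and 535 lower genes. Of the called genes, 49 rose and 13 fell by at least 1 on the log2 scale. In every called gene all libraries of a genotype lay on the same side of those of the other, as they did for 34.5% of all tested genes (17.1% higher and 17.4% lower in Sirt7-/- cells). The median log2 fold change of all tested genes was -0.01. The called genes that rose had a median mean level of 287 normalized counts and those that fell 1659, against 799.8 for all tested genes.

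The number of calls depended on how the replicates were treated. The fit without the replicate number was the main one, and a fit with it as a block called 177 genes higher and 104 lower (1.35% and 0.796%, together 2.15%), including all 56 and all 20. With Wt replicate 1 left out, 54 and 14 genes were called, and with Wt replicate 2 left out, 14 and 2. Leaving out Sirt7-/- replicate 1 gave 3 and 1 genes, and leaving out Sirt7-/- replicate 2 gave 3 and 0 (limma, with 405 lower genes at an unadjusted p under 0.05). A fit on the 4 EV libraries alone, with no spread taken from the Pax5-transduced libraries, called 3 genes higher and 4 lower, and the Sirt7 level was then not called (limma adjusted p = 0.103). Efnb2, Pcp4 and Crhbp were called whichever of the 4 EV libraries was left out, and all 76 called genes kept their direction in each of the 14 alternatives tried.

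**Figure D2:**
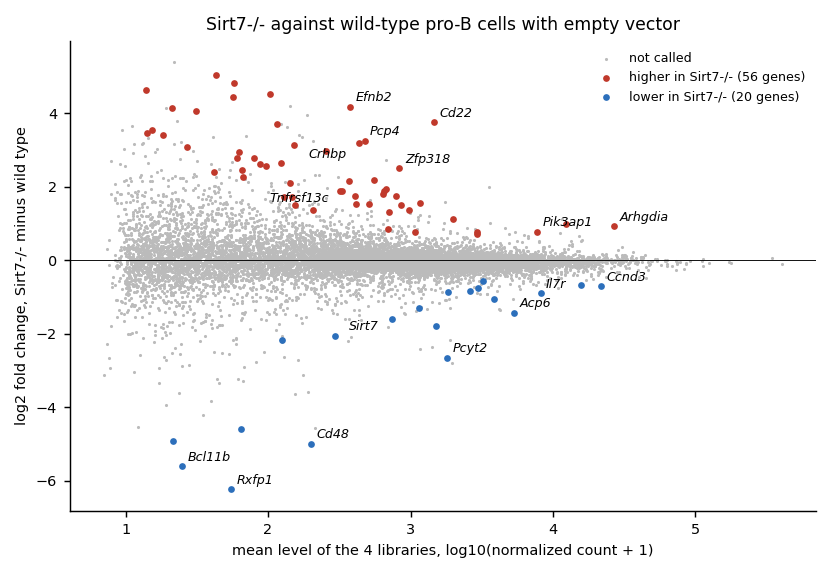
Log2 fold change (Sirt7-/- minus wild type, EV) of each of the 13073 tested genes against the mean level of the 4 libraries on a log10 scale. The 56 genes called higher are red, with Efnb2 at 4.19, and the 20 called lower are blue, with Cd48 at -4.99, while most genes lie near 0; points of called genes with at most 3 normalized counts in both libraries of a genotype (6 higher, 3 lower) are fitted values and no bounds.

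The called members of the B cell lists were Cd22, Pik3ap1, Zfp318 and Tnfrsf13c, which all rose. Cd22 encodes a sialic acid-binding inhibitory coreceptor of the B cell receptor. It had 113 and 303 normalized counts in wild-type cells and 1739 and 3649 in Sirt7-/- cells, with a log2 fold change of 3.76, an SE of 0.55 and an adjusted p = 0.0342 by limma. Neither wild-type library came near the Sirt7-/- libraries. Tnfrsf13c, the receptor for the survival factor BAFF, rose from 152 and 127 to 500 and 536 (log2 fold change 1.89, SE 0.20, limma adjusted p = 0.0124). Zfp318, a zinc finger factor needed for the switch from IgM to IgD transcripts, rose from 217 and 284 to 1406 and 1431 (2.51, SE 0.37, limma adjusted p = 0.0342). Pik3ap1, the adaptor BCAP that links the B cell receptor to phosphoinositide 3-kinase, rose from 6156 and 5262 to 9374 and 10133 (0.78, SE 0.11, limma adjusted p = 0.0292). The genotypes were well apart for all 4 genes, and in each of them both libraries with added Pax5, of either form, lay above both EV libraries of Sirt7-/- cells.

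Each of these 4 genes had a shared Pax5 peak within 5 kb of a transcription start, as did 34.6% of all tested genes with a position and 32.1% of those called higher. The summit sequences of 3 of them are shown because they are called genes of the B cell lists. Each window of 121 bases is written 5′ to 3′ on the strand of the gene, and GCGTGAC or GTCACGC, which would be in capitals, is in none of them.
Cd22: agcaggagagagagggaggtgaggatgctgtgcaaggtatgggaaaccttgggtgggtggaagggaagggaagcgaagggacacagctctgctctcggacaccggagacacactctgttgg
Tnfrsf13c: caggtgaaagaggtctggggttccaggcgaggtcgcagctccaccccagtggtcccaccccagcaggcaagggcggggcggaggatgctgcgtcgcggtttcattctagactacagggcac
Zfp318: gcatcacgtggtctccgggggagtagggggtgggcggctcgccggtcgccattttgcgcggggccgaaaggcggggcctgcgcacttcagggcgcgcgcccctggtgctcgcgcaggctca
The Cd22 window is at chr7:30879092-30879212 (minus strand), with the summit 72 bases after a start and an enrichment over input of 23.6-fold and 24.5-fold in the 2 replicates. The Tnfrsf13c window is at chr15:82224356-82224476 (minus strand), 47 bases before a start by its summit (-47), at 9.83-fold and 9.57-fold. The Zfp318 window is at chr17:46383470-46383590 (plus strand), with its summit at -201 from a start, at 8.54-fold and 7.26-fold. The Pik3ap1 summit lay at -373 from a start, at 11.5-fold and 9.40-fold.

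Efnb2, the ligand ephrin-B2 of Eph receptors, had 43.5 and 31.6 normalized counts in wild-type cells and 895 and 537 in Sirt7-/- cells (log2 fold change 4.19, SE 0.27, limma adjusted p = 0.00185). Pcp4, a small calmodulin-binding protein, had 89.3 and 87.5 against 966 and 759 (3.26, SE 0.20, limma adjusted p = 0.00185). Crhbp, the binding protein of corticotropin-releasing hormone, had 105 and 67.8 against 732 and 827 (3.19, SE 0.20, limma adjusted p = 0.00185). These 3 genes had the smallest adjusted p of the comparison, and the Sirt7-/- libraries were at least several times above the wild-type libraries in each.

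Other large increases were in genes at low levels in cultured wild-type cells. Nrgn, a calmodulin-binding protein, had 4.03 and 2.07 normalized counts in wild-type cells and 117 and 104 in Sirt7-/- cells (log2 fold change 4.83). Fam81a had 10.2 and 5.11 against 152 and 242 (4.54), and Mtus2, a microtubule-associated protein, had 6.52 and 2.20 against 100.4 and 113 (4.46). Sgsm1 (3.70), the actin-binding Shroom3 (3.14), Vipr1, the receptor for vasoactive intestinal peptide (2.96), the ubiquitin ligase Rnf125 (2.96) and Lmo7 (2.79) complete the 12 largest increases under the naming rule, all with limma adjusted p between 0.00185 and 0.0351. In 6 called genes both wild-type libraries were at or under 3 normalized counts. The fold change of these genes is a lower bound, computed against 3 counts per library, for example at least 27.8-fold higher for Klk1b22, a kallikrein picked after its values were seen (1.04 and 2.04 against 66.0 and 101 normalized counts). In freshly sorted pro-B cells Nrgn was abundant, with 19590.5 and 22954.8 in wild type and 22213.6 and 17411.5 in Sirt7-/-, and the genotypes overlapped. There Klk1b22 had 343 and 295 against 774 and 272, and Mtus2 9.35 and 53.1 against 25.7 and 65.5. Fam81a had 12.2 and 32.6 against 52.3 and 78.4 in sorted cells.

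**Figure D3:**
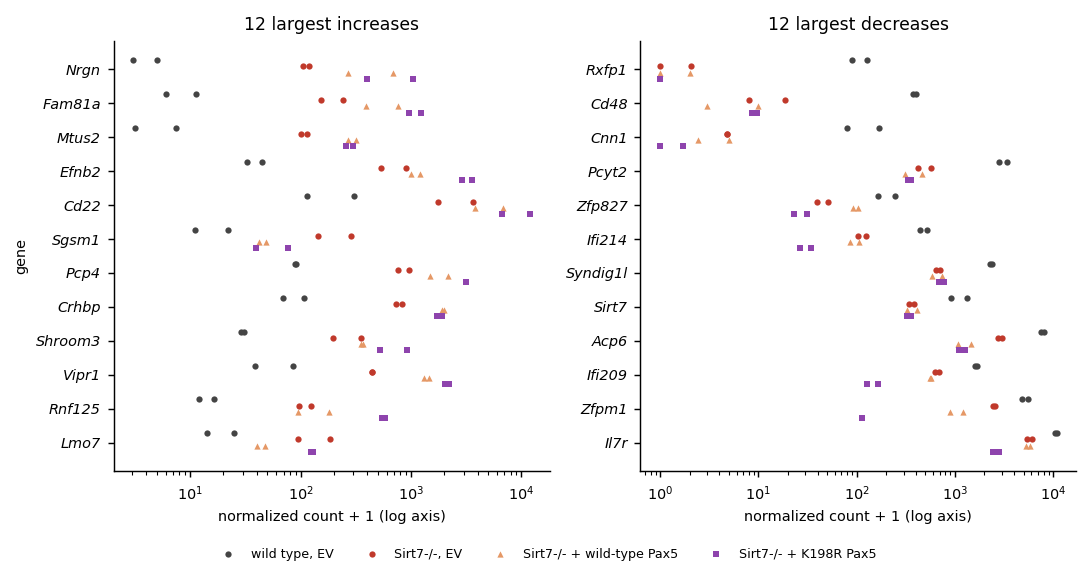
Normalized counts plus 1 (log axis) in each library for the 12 largest increases (left) and the 12 largest decreases (right) under the naming rule, with wild type and Sirt7-/- with EV as circles, and Sirt7-/- with wild-type Pax5 or Pax5 K198R as triangles and squares. The EV libraries of the genotypes are apart in every row, and Cd22 climbs from 113 and 303 in wild type to 6611 and 11907 with Pax5 K198R.

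Other genes rose by less. Eng, the TGF-beta coreceptor endoglin, rose from 294 and 271 to 914 and 1086 normalized counts (log2 fold change 1.82), and Smad3, a transcription factor of the TGF-beta pathway, from 805 and 771 to 1338 and 1371 (0.78). Plxnb2, a semaphorin receptor, rose from 307 and 244 to 1036 and 1094 (1.95), Fzd3, a Wnt receptor, from 67.9 and 50.8 to 209 and 185 (1.73), and Scin, an actin-severing protein, from 224 and 173 to 1009 and 796 (2.18). Myo1e, a class I myosin, rose from 465 and 283 to 1244 and 1188 (1.74). The 6 genes were picked after their values were seen, and their limma adjusted p lay between 0.00795 and 0.0396. Scin stood out, since it was at 161 and 143 with added wild-type Pax5 and at 45.5 and 43.3 with Pax5 K198R, below both wild-type EV libraries.

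Il7r was among the 20 genes that fell. It encodes the alpha chain of the IL-7 receptor, through which the cultures were kept alive. It had 10843 and 10445 normalized counts in wild-type cells and 5361 and 6155 in Sirt7-/- cells, and fell by 0.89 on the log2 scale, with an SE of 0.12 (limma, adjusted p = 0.023). Ccnd3, the D-type cyclin that pro-B cells need for expansion, fell from 27218 and 27158 to 16380 and 16845 (-0.71, SE 0.11, limma adjusted p = 0.0392). The replicates of a genotype were close to each other for both genes and far from those of the other. They were the 2 called members among 23 tested genes of the IL-7 receptor and STAT5 pathway, where 0.153% of all tested genes were called lower. The median log2 fold change of the list was 0.01. Jak1 and Stat5b, which carry the signal, had log2 fold changes of 0.03 and 0.20 with adjusted p of 0.9998 and 0.698.

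The other decreases ranged from abundant enzymes to genes that were nearly absent from the cultured Sirt7-/- cells. Acp6, a lysophosphatidic acid phosphatase, fell from 8036 and 7446 to 2990 and 2750 normalized counts (log2 fold change -1.43, SE 0.15, limma adjusted p = 0.0121). Parp1, the poly(ADP-ribose) polymerase of DNA repair, fell from 19970 and 18823 to 11846 and 12595 (-0.67, SE 0.10, limma adjusted p = 0.0341). Both were clearly lower in both Sirt7-/- libraries. Zfpm1, the GATA cofactor FOG1, fell from 5556 and 4836 to 2537 and 2418 (-1.06), and Syndig1l from 2301 and 2406 to 705 and 649 (-1.80). Zfp827, a zinc finger gene, fell from 244 and 165 to 50.2 and 38.3 (-2.17). Ifi209 and Ifi214 belong to the interferon-inducible p200 family and lie within 1 Mb of each other on chromosome 1. Ifi209 fell from 1659 and 1594 to 634 and 694 (-1.29), and Ifi214 from 514 and 440 to 101 and 125 (-2.07). The family members are similar in sequence, so that the authors' counting could have split reads between them.

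Cd48, a ligand of lymphocyte adhesion receptors, had 398 and 378 normalized counts in wild-type cells and 7.06 and 17.5 in Sirt7-/- cells (log2 fold change -4.99, SE 0.64, limma adjusted p = 0.0201). Cnn1, a calponin of smooth muscle, had 169 and 78.4 against 3.77 and 3.77 (-4.61). Rxfp1, the relaxin receptor, had 127 and 89.3 against 1.04 and 0, at least 36.0-fold lower when compared with 3 counts per library. Bcl11b, which commits progenitors to the T lineage, had 45.9 and 49.7 against 0 and 0, at least 15.9-fold lower on the same basis. These 4 genes were far apart between genotypes in culture, at levels that are low even in cultured wild-type cells. In freshly sorted pro-B cells Cd48 had 2280 and 2623 normalized counts in wild type and 2552 and 2817 in Sirt7-/-. There Rxfp1 had 506 and 407 against 376 and 382, and Cnn1 153 and 124 against 114 and 114. Bcl11b had 27.1 and 32.6 against 7.34 and 7.38 in sorted cells.

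Among transcription factors of the B lineage, Zfp318 was the called gene of 30 tested, where 0.428% of all tested genes were called higher. The median log2 fold change of the list was 0.10, with 20 members above and 10 below 0. Pax5 had 23862 and 27134 normalized counts in wild-type cells and 25995 and 37114 in Sirt7-/- cells (log2 fold change 0.29, SE 0.18, limma adjusted p = 0.761), and the genotypes overlapped. Ebf1, a partner of Pax5 in specification, had 10959 and 10860 against 9159 and 10746 (-0.14), and Ikzf1, which encodes Ikaros, had 7527 and 8839 against 7805 and 10828 (0.17). Of 30 genes of the pre-B cell receptor and its signalling, Cd22 and Pik3ap1 were called higher, and the median was 0.01. Igll1, Ighm and Cd79a, which form the receptor, had log2 fold changes between -0.09 and -0.06.

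**Figure D4:**
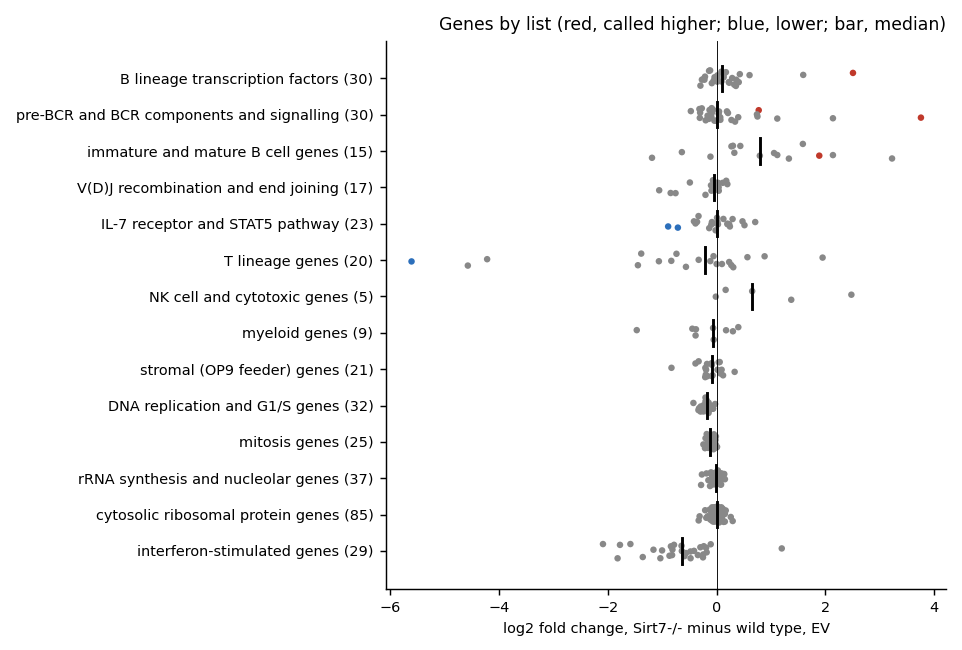
Log2 fold change (Sirt7-/- minus wild type, EV) of each tested gene in 14 lists, with the number tested in brackets, called genes in red (higher) or blue (lower) and the list median as a bar. The median of the immature and mature B cell genes is 0.80 and that of the interferon-stimulated genes -0.64, while the medians of the other lists with at least 15 genes lie between -0.22 and 0.10.

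Genes of later B cell stages were mostly above their wild-type level, with few calls. Of 15 tested, 12 had a log2 fold change above 0, the median was 0.80, and Tnfrsf13c was called. Of all 13073 tested genes, 6169 had a log2 fold change above 0, and 0.428% were called higher. With the replicate block 6 were called higher and 1 lower, against 1.35% and 0.796% of all tested genes. Ighd, the delta constant region of IgD, had 814 and 899 normalized counts in wild-type cells and 2174 and 3045 in Sirt7-/- cells (log2 fold change 1.59, limma adjusted p = 0.269, or 0.0286 with the block). H2-Aa, an MHC class II chain, had 3.97 and 3.0 against 27.4 and 60.3 (limma adjusted p = 0.164, or 0.0272 with the block). Ms4a1, which encodes CD20, had 16.0 and 31.0 against 57.9 and 178 (limma adjusted p = 0.467, or 0.0272 with the block), and Ccr7, a chemokine receptor for lymph node homing, had 117 and 197.8 against 225 and 450 (0.645, or 0.0156 with the block).

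None of 17 genes of V(D)J recombination and end joining was called, where 0.581% of all tested genes were. Rag1, a subunit of the recombinase, had 5503 and 8196 normalized counts in wild-type cells and 2068 and 5055 in Sirt7-/- cells (log2 fold change -1.05, limma adjusted p = 0.535, or 0.0182 with the block). It was the called member with the block, where 0.796% of all tested genes were called lower. Rag2, its partner, had 1347 and 1548 against 579 and 1116 (-0.84, limma adjusted p = 0.459), and Dntt, the template-independent polymerase, 18007 and 9072 against 10942 and 5253 (-0.75, adjusted p = 0.948). Hmgb1 and Hmgb2, DNA-bending cofactors of the recombinase and the most abundant members, differed by -0.02 and -0.07.

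Genes of other lineages gave few calls. Of 20 T lineage genes tested, Bcl11b was called lower (0.153% of all tested genes were) and none higher, with a median log2 fold change of -0.22. With the block Ctla4, Lat and Trdc were also called lower, where 0.796% of all tested genes were. Ctla4, an inhibitory receptor of T cells, had 278 and 531 normalized counts in wild-type cells and 7.08 and 31.4 in Sirt7-/- cells (limma adjusted p = 0.0736, or 0.0351 with the block). Lat, an adaptor of T cell receptor signalling, had 3136 and 1826 against 1807 and 729 (0.768, or 0.0315 with the block). None of 5 genes of NK cells was called, where 0.581% of all tested genes were. Nkg7, a granule protein, had 17.3 and 5.03 against 129 and 25.4 (limma adjusted p = 0.501, or 0.0108 with the block). The block called 1.35% of all tested genes higher. None of 9 myeloid genes was called with or without the block. Csf2rb, the shared beta chain of cytokine receptors and the most abundant of them, had 4362 and 3417 against 4353 and 4368, and the summed level of the list was 7060 and 4821 against 6610 and 6261.

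The genes that the study names for this experiment had higher means in Sirt7-/- cells and were not called at an adjusted p under 0.05. The study took Cxcr5 and Tet1 from a clustering of these libraries, on genes selected by a p-value for which it states no adjustment. It named Nfatc2 and Cyyr1 as genes that added wild-type Pax5 lowered in Sirt7-/- cells. The direction of these 4 genes is therefore not independent evidence. By RT-qPCR the study reported derepression of Thy1, Zap70, Trbc1, Trbc2, Cd3e and Tigit in expanded Sirt7-/- progenitors. Of these 6 genes, Thy1 and Zap70 were the 2 with deposited counts for these libraries, so the others could not be looked up. Cxcr5, the follicle-homing chemokine receptor, had 406 and 193 normalized counts in wild-type cells and 1045 and 477 in Sirt7-/- cells (log2 fold change 1.33, SE 0.77, limma adjusted p = 0.732, or 0.0338 with the block). Tet1, a DNA demethylating dioxygenase, had 179 and 66.7 against 354 and 286 (1.53, limma adjusted p = 0.414), and Nfatc2, a calcium-regulated transcription factor, 18.6 and 15.9 against 88.9 and 54.2 (1.95, limma adjusted p = 0.253). Cyyr1 had 65.98 and 78.4 against 219 and 198.1 (1.52, limma adjusted p = 0.701). In all 4 genes both Sirt7-/- libraries were above both wild-type libraries, as for 17.1% of all tested genes. Thy1, a surface glycoprotein of T cells, had 1380 and 780 against 1960 and 1208 (0.57, limma adjusted p = 0.93), and Zap70, a T cell receptor kinase, 134 and 69.4 against 158 and 86.1 (0.27, limma adjusted p = 0.9998), and the genotypes overlapped for both. Tet1 and Nfatc2 were among the 742 higher genes at an unadjusted p under 0.05 (limma), and Cxcr5, Cyyr1, Thy1 and Zap70 were not.

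Lists of growth and division genes held no called gene, where 0.581% of all tested genes were called. All 32 genes of DNA replication and the G1/S transition had a log2 fold change below 0, with a median of -0.18 and a range of -0.42 to -0.03. Among all 13073 tested genes, 6169 were above 0. The summed level of the list overlapped between genotypes, with 197237 and 234249 normalized counts in wild-type cells and 170536 and 206890 in Sirt7-/- cells. In 10 of the 32 both Sirt7-/- libraries lay below both wild-type libraries, against 17.4% of all tested genes. Pcna, the replication clamp, had 16412 and 21026 normalized counts in wild-type cells and 14089 and 17015 in Sirt7-/- cells (limma adjusted p = 0.70). Of 25 mitosis genes, 24 were below 0, with a median of -0.12 and no call, and in 7 the libraries lay apart in that direction. Their summed level also overlapped (155354 and 162392 against 142656 and 156464). Mki67, the proliferation marker, had 26831 and 27550 against 26379 and 27342. None of 37 genes of rRNA synthesis and the nucleolus was called (median -0.00, range -0.28 to 0.15), nor of 85 cytosolic ribosomal proteins (median 0.02) or 77 respiratory chain genes (median -0.07). Of 21 cell cycle brakes and p53 targets none was called, and Cdkn1a, which encodes p21, had 5954 and 4409 against 3243 and 2540 (-0.84, limma adjusted p = 0.134).

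Interferon-stimulated genes set a library apart. Of 29 tested, 28 had a log2 fold change below 0, with a median of -0.64, and none was called with or without the block. Among all tested genes 2.15% were called with the block and 0.581% without it. In 26 of them Wt replicate 2 was the highest of the 4 EV libraries, and in 15 it was at least 2-fold above each of the other 3, as it was for 0.451% of all tested genes. Ifi44 had 329 and 2529 normalized counts in wild-type cells and 355 and 469 in Sirt7-/- cells, and Irf7, a regulator of the interferon response, 137 and 1195 against 70.4 and 127. Without Wt replicate 2 the median of the list was 0.02. In 10 of the 29 both Sirt7-/- libraries lay below both wild-type libraries, against 17.4% of all tested genes, for example Gbp7, a guanylate-binding protein (7656 and 8615 against 5657 and 5997, limma adjusted p = 0.183). Ifi209 and Ifi214, described above, did not share this pattern, since their wild-type libraries were close to each other.

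**Figure D5:**
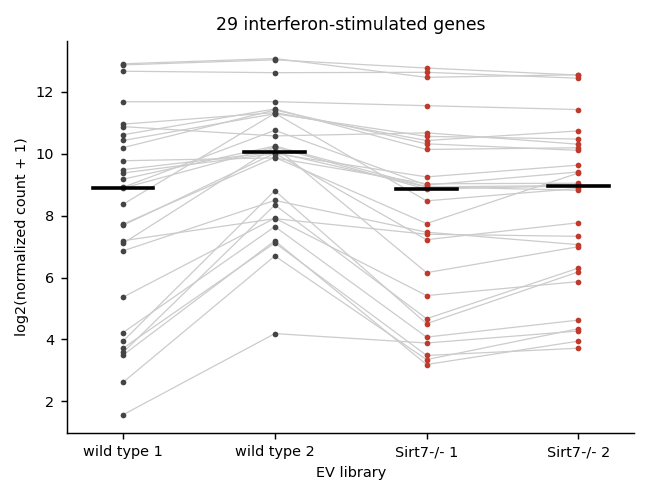
Level of 29 interferon-stimulated genes, log2(normalized count + 1), in each of the 4 EV libraries, with a grey line joining the values of a gene and a black bar at the median. Wild-type replicate 2 lies above the other 3 libraries for most genes, with a median of 1058 normalized counts against 462 to 498 in Sirt7-/- and 473 in the other wild-type library.

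Freshly sorted pro-B cells, from a separate table with 2 wild-type and 2 Sirt7-/- libraries, were used to look at the called genes again. There, 11 of 16701 genes were called (0.0659%). Of the 56 genes called higher in culture, 45 were tested in the sorted cells, and 34 of these (75.6%) had the same direction, against 50.5% of all genes tested in both. In 22 (48.9%) the libraries did not overlap in that direction, against 20.6% of all genes. Of the 20 called lower, 18 were tested and 10 (55.6%) had the same direction, and in 7 (38.9%) the libraries did not overlap in it. Both the 10 and the 7 include Sirt7, whose fall is set by the genotype, and Pcyt2, next to the deletion. In 6 of the 63 the sorted libraries lay apart in the direction opposite to culture, against 19.8% of all genes tested in both. Sirt7 and Pcyt2 were the called genes of culture that were also called in sorted cells. Sirt7 had 2692 and 2533 normalized counts in wild-type cells and 363 and 366 in Sirt7-/- cells (log2 fold change -2.84, limma adjusted p = 0.00275). Pcyt2 had 2665 and 2582 against 569 and 634 (-2.13, limma adjusted p = 0.0394). Arhgdia, near Sirt7, had 54242 and 58100 against 85816 and 114613 in sorted cells (0.82, and 0.92 in culture). P4hb, also near Sirt7, had 8271 and 9014 against 14736 and 20594 (1.01, and 0.99 in culture). Neither was called in sorted cells (limma adjusted p of 0.487 and 0.460). For other genes sizes differed between the settings. Cd22 had 7010 and 7322 against 9035 and 7884 in sorted cells (0.24, limma adjusted p = 0.98), and Tnfrsf13c 3096 and 3499 against 3763 and 3632 (0.17). Il7r had 19404 and 22206 against 16139 and 15516 in sorted cells (-0.39, limma adjusted p = 0.86), the direction seen in culture. The difference between culture and sorted cells was not tested, since the tables were normalized separately.

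The called genes were also looked up in Pax5-/- pro-B cells (C57BL/6 background, and of fetal liver origin by the methods) given wild-type Pax5 or EV, where 430 of 12960 genes were called (3.32%). Of 42 genes called higher without Sirt7 that were tested there, 6 rose and 1 fell with Pax5, and of 15 called lower, 4 rose and none fell. Among all genes tested in both tables, 2.35% rose and 0.853% fell. Pcp4 had 5.95 and 4.98 normalized counts with EV and 258 and 281 with Pax5, and Crhbp 18.1 and 40.7 against 253 and 289. Eng, Bfsp2, Uchl1 and Slc29a4 rose as well. Il7r, lower without Sirt7, rose from 1286 and 1293 to 3614 and 3058 (log2 fold change 1.37, limma adjusted p = 0.00425). Ifi209, Rxfp1 and Acp6, also lower without Sirt7, rose by 3.79, 4.83 and 1.24 on the log2 scale.

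Shared wild-type Pax5 peaks lay within 5 kb of a start in 18 of 56 genes called higher (32.1%) and 11 of 20 called lower (55%), against 34.6% of 13017 tested genes with a position. Arhgdia and P4hb were counted through the same peak, and so were Sirt7 and Pcyt2. The share was larger at higher expression, from 13.8% of genes with a mean under 100 normalized counts to 46.0% of those at 1000 or more. Of genes at 1000 or more, 9 of 9 called higher and 9 of 12 called lower had a peak, and Arhgdia and P4hb with their common peak are among the former. At lower levels the genes called higher had a peak in 7 of 29 (24.1%) against 32.3% from 100 to under 1000 and in 2 of 18 (11.1%) against 13.8% under 100. The genes called lower had a peak in 1 of 4 (25%) at each of these levels. These peaks come from Pax5-/- cells with added Pax5, and binding in Sirt7-/- cells is not analysed here.

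Levels with added Pax5 are given beside the EV values, since they share the same table and the same wild-type libraries. With wild-type Pax5, Il7r had 5301 and 5873 normalized counts, and with Pax5 K198R 2431 and 2834, below the 5361 and 6155 of Sirt7-/- cells with EV in the latter case. Ccnd3 had 18035 and 15135, and 19401 and 18844. Efnb2 had 1213 and 1005, and 3582 and 2878, all above the EV libraries of Sirt7-/- cells. Tet1 had 161 and 61.0 with wild-type Pax5, and 125 and 78.4 with Pax5 K198R, all below both EV libraries of Sirt7-/- cells. Nfatc2 had 49.2 and 15.1, and 15.7 and 11.6, also below both of them, and Cyyr1 160 and 55.05, and 45.1 and 5.69, below them too. Cxcr5 had 689 and 174, and 333 and 107, and its first library with wild-type Pax5 lay between the Sirt7-/- EV libraries.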

How the data were processed

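The authors prepared strand-marked polyA RNA libraries, quantified reads with Salmon with GC-bias correction on mm10, imported them with Tximeta, and deposited normalized counts, a signal scaled with DESeq2 size factors (median of ratios). Versions, and whether counting used strand, are not given in the sources used here. The authors also deposited Pax5 peak lists with a fold enrichment over input and a -log10 q for each replicate. Raw depth is not known for the cultured libraries, and normalized totals were 27814214 to 30160880.

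Of 18721 rows, 1745 had no symbol, and 1636 of these were named from a gene table. Genes that reached 10 in 2 of the 4 EV libraries (13073) were tested on log2(normalized count + 1), so that fold changes of low genes are understated. The test was limma 3.58.1 (R 4.3.3) with a variance trend over all 8 libraries of the table as 4 groups, with adjusted p under 0.05 (Benjamini-Hochberg). An exact permutation test of 2 against 2 libraries cannot go below p = 0.333. On simulated data of 13073 genes, the test recovered 68% of 100 genes changed by 1 and 92% of 100 changed by 2 on the log2 scale. Same-numbered libraries deviated together in all 6 pairs of groups (r from 0.159 to 0.434, across genes), and the methods say that replicates were made on different days, so a fit with the number as a block is given where it changes a call.

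Members and gene lists were chosen with earlier results of these data known. Named genes were Sirt7, Pax5, those the study names, the 12 largest increases and decreases among named, called, non-overlapping genes with a mean of at least 100 in the higher group, and called or most abundant list members. Genes named outside this rule were chosen after their values were seen. Sorted pro-B and Pax5-/- tables were fitted separately in the same way; the Pax5-/- comparison, the edgeR 4.0.16 test on whole reads recovered from the sorted table and the interferon median without Wt replicate 2 were added after seeing the data. Positions are from GENCODE vM21 (GRCm38). Peak windows on chromosome 18 were left out. Some items are not reported here.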

Additional observations from a re-analysis of the deposited data

Results flagged for a closer look

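Of 63 genes called in culture and tested in freshly sorted pro-B cells, 6 lay on the opposite side there with all libraries of a genotype apart in both settings. Among all genes tested in both, 19.8% lay apart in sorted cells in the direction opposite to culture. Ccnd3 fell in culture (log2 fold change -0.71) and had 67285 and 63803 normalized counts in sorted wild-type cells and 79001 and 71756 in sorted Sirt7-/- cells, a difference of 0.20. Zfp318 rose in culture (2.51) and had 1523 and 1601 against 1412 and 1179 in sorted cells, a difference of -0.27. Mast4, a serine/threonine kinase, rose in culture (1.74) and had 1668 and 2676 against 775.0 and 769 in sorted cells, the largest of the 6 differences at -1.45. Atp7b (3.08 in culture) differed by -0.54, Myo1e (1.74 in culture) by -0.18 and Anxa11 (-0.76 in culture) by 0.20 in sorted cells. None of the 6 was called in sorted cells (limma adjusted p from 0.785 to 0.993). The difference between the settings was not tested, since the tables were normalized separately.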

How the results depend on the processing

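The counts of genes called higher and lower were 56 and 20. Fitting only the 4 EV libraries gave 3 and 4, no filter on low values gave 35 and 15, and the replicate block gave 177 and 104. With 1 EV library left out at a time the counts ranged from 3 to 54 higher and from 0 to 14 lower, where the lone library of a group is assumed to vary like the other groups. The count of 0 came without Sirt7-/- replicate 2, where limma gave 405 lower genes at an unadjusted p under 0.05. Pseudocounts of 0.5 and 5, a minimum of 50, the minimum over all 8 libraries, quantile and upper-quartile scaling and a fit with no variance trend gave 49 to 60 higher and 16 to 28 lower. The log2 fold change of the Sirt7 level was -1.60 with only the 4 EV libraries (limma adjusted p = 0.103) and -1.60 with no variance trend (0.0553), and from -1.87 to -1.325 with 1 library left out (0.0502 to 0.173). Of 124 genes followed over the alternatives, 11 were called with the replicate block and not without it (Cxcr5, Nkg7, Mzb1, Ccr7, Ctla4, H2-Aa, Ighd, Lat, Ms4a1, Rag1 and Trdc), and the block ended no call. The sign changed under some alternative in 35 of the 124, none of them called. Among those the report names, quantile scaling turned Hmgb1 to 0.083 and Ighm to 0.026, and upper-quartile scaling turned Hmgb1 to 0.018 and Mki67 to 0.022. With 1 EV library left out, log2 fold changes spanned 0 for Ifi44 (-2.63 to 0.31), Zap70 (-0.20 to 0.74), Fn1 (-0.33 to 0.36), for the log2 fold change of Csf2rb (-0.000614 to 0.35), for Ikzf1 (-0.064 to 0.41), Hmgb2 (-0.21 to 0.074), Hmgb1 (-0.072 to 0.027), Igll1 (-0.18 to 0.0085), Ighm (-0.14 to 0.012), Jak1 (-0.041 to 0.093) and Mki67 (-0.044 to 0.0081). Without Wt replicate 2 the median of the interferon-stimulated genes went from -0.64 to 0.02. In sorted cells limma called 11 genes and edgeR 10.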
